A study of Mus musculus with 6 samples.

Results

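Jun, a partner in the dimeric transcription factor AP-1, had 62 peaks in 210 kb of mouse chromosome 8 around Wwp2 and the microRNA gene Mir140 that lies within it, out of 99162 peaks in the whole list and 5082 on chromosome 8. The peaks were chosen by position alone: the middle of each lies between 109920001 and 110130000 on the mouse genome build mm9. The rule gives Wwp2 as about 109960000 to 110083000 and Mir140 as about 110075000, and these rounded positions are used below for every distance and every statement of inside or outside. The peaks come from ChIP-seq, which sequences the DNA that an antibody against Jun pulls down with cross-linked chromatin. The antibody library came from rib chondrocytes, the cells of rib cartilage, isolated by enzyme digestion from untreated wild-type ICR mice at postnatal day 1. The library of input DNA that accompanied it came from the same kind of cells, strain and age, and its values were not analysed here. Sorted rib chondrocytes of Swiss Webster mice with the Col10a1mCherry reporter (postnatal days 1 and 3, and E18.5) gave 4 RNA-seq libraries, which were not analysed here, so the cell type was not checked against marker genes. The study asked how AP-1 factors act together with Sox9 while chondrocytes become hypertrophic.

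Wwp2 encodes a ubiquitin ligase with WW domains, an enzyme that marks other proteins for degradation or altered use, and it is known for a role in craniofacial cartilage. Mir140 lies in an intron of Wwp2 and is one of the best known cartilage microRNAs. Its hairpin yields miR-140-5p and miR-140-3p, mice that lack it have shortened skeletal elements, and Sox9 has been described as an activator of the locus. AP-1 dimers of Jun and Fos proteins recognise the letters TGANTCA. In the RefSeq gene table of the build GRCm38.p6, Nqo1, which encodes a quinone reductase, and Nob1, an endonuclease gene of ribosomal RNA maturation, are the nearest protein-coding neighbours on the side where Wwp2 starts. Psmd7, which encodes a proteasome subunit, and Zfhx3, a gene for a zinc finger homeobox factor, follow on the other side. That build differs from mm9, so the table served for names and gene order and no peak was placed on these neighbours.

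The RNA that the locus is best known for and the start of its host gene are shown because the peaks below are described by their distance from both. RefSeq places the Mir140 hairpin at chr8:107551244-107551313 on the plus strand of GRCm38.p6. In the hairpin the capitals mark mature miR-140-3p (bases 45 to 65 of 70), and in the mature RNAs they mark the seed, bases 2 to 8. The seed of miR-140-3p is shared with 1 other name among 1679 mature mouse microRNAs in the RefSeq table, miR-497b, encoded on chromosome 11.
Mir140 hairpin: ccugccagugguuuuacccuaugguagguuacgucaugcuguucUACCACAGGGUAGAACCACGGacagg
miR-140-3p: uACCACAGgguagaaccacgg
miR-497b: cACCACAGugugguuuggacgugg

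The Wwp2 promoter, 250 bases before to 50 after the RefSeq start at chr8:107436120-107436419 on the plus strand of GRCm38.p6, is GC-rich, with 64.3% G or C against a median of 52.7% over 32851 promoters in the table. It holds no TGANTCA on either strand. These AP-1 letters occur in 7.81% of the promoters in the table. The stricter letters TGACTCA, which are contained in them, occur in 5.20%, and the related TGACGTCA, which does not contain TGANTCA, occurs in 1.79%. Neither is in this promoter sequence. The Sox letters ACAAAG (18.7% of promoters) and AACAAT (10.7%) are likewise not among these bases. The capitals mark the single match found for the letters searched, the E-box CACGTG, which 7.15% of promoters hold and which reads the same on both strands.
Wwp2 promoter: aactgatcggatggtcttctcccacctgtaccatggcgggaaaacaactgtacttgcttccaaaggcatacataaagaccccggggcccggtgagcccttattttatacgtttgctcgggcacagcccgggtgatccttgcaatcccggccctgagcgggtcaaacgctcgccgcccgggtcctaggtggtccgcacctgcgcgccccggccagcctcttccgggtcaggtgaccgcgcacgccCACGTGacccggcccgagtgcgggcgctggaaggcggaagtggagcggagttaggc

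Wwp2 is on the plus strand in RefSeq, so its lower bound was taken as its start, and there the list held 1 peak. It was 117 bp wide, lay from 109960594 to 109960710, and its centre was 652 bp inside the rounded lower bound of the gene. The nearest other peaks were 11.7 kb away before it and 11.8 kb after it. It stood at 80.2% of the way down the deposited list, whose order no label explains. Jun peaks at this locus were thus few at the start of the host gene and became frequent further in.

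Wwp2 held most of the peaks. Inside its rounded bounds lay 50 of the 62 peaks, or 4.07 per 10 kb (exact Poisson 95% interval 3.02 to 5.36). The 2 flanks together held 12 peaks, or 1.38 per 10 kb (0.713 to 2.41). The ratio of the densities was 2.95 (exact 95% interval 1.55 to 6.08), and it was between 2.62 and 3.03 when both bounds were moved by 2 kb inwards or outwards. With peaks within 1000 bp of each other merged, 29 of 33 regions lay inside Wwp2 and the ratio was 5.13, which rests on the few regions left in the flanks. The 40 kb before Wwp2 held 5 peaks and the 47 kb after it 7, of which 6 directly continued the peaks at the end of the gene. All intervals cover counting error only. Neighbouring peaks are not independent, the list has no replicate, and its read depth is unknown.

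**Figure D1:**
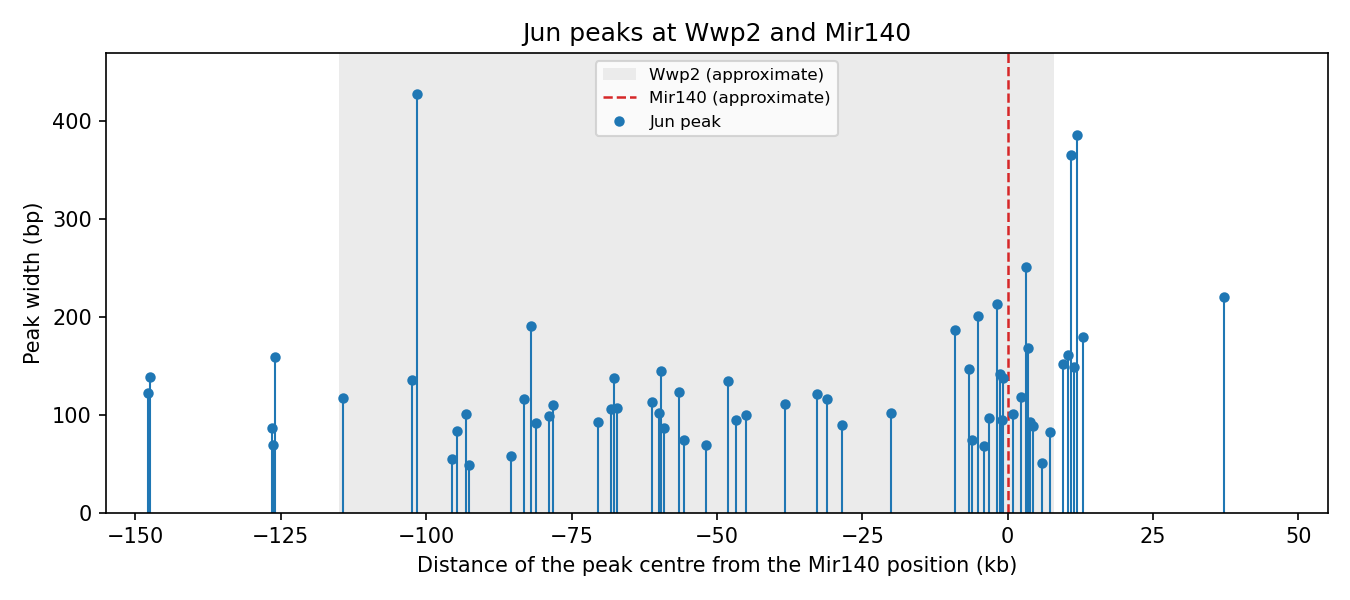
Each stem is 1 of the 62 Jun peaks, placed by the distance of its centre from the approximate Mir140 position (kb, horizontal axis), with its width in bp as height; the grey band is Wwp2 and the dashed line Mir140, both approximate. Peaks run through most of Wwp2 and crowd around Mir140, and the widest (428 bp) lies 102 kb before it.

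Chaining peaks whose next centre was within 10 kb gave 6 groups, and 2 of these made up 55 of the 62 peaks. The Mir140 group had 24 peaks in 22.2 kb, from 110065808 to 110087967, and spanned the position of Mir140 and the end of Wwp2. The intragenic Wwp2 group had 31 peaks in 82.5 kb, from 109972419 to 110054918, and its first centre was 12.5 kb inside the gene. Neighbouring centres of the 2 groups were 11.03 kb apart. The other 4 groups were a pair of peaks, a set of 3 and 2 single peaks.

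The Mir140 group was the more crowded. It had 10.8 peaks per 10 kb, and the intragenic Wwp2 group had 3.76, a ratio of 2.88. The groups were formed from the spacing of these same peaks, so their densities are a description, with no interval or test. Inside the Mir140 group the median distance between neighbouring centres was 868 bp and the longest 2418 bp. In the intragenic Wwp2 group the median was 1630 bp and the longest 8349 bp. The difference depended on counting close neighbours separately. With peaks within 1000 bp of each other merged, the Mir140 group became 8 regions and the intragenic Wwp2 group 21, or 3.61 and 2.55 regions per 10 kb, a ratio of 1.42.

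Of those merged regions, 4 carried 20 of the 24 peaks of the Mir140 group. The first, of 3588 bp (110068246 to 110071833), joined 5 peaks before Mir140. The next, of 1309 bp (110073037 to 110074345), joined 4 peaks and ended just before the Mir140 position. A region of 2207 bp (110077149 to 110079355) joined 5 peaks between Mir140 and the end of Wwp2. A region of 3564 bp (110084404 to 110087967) joined 6 peaks beyond the end of Wwp2. In the intragenic Wwp2 group no merged region joined more than 3 peaks or exceeded 1137 bp.

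No peak covered the rounded position of Mir140. It fell in a stretch of 1545 bp without a peak, from 110074346 to 110075890. The centre of the nearest peak before it (110074208 to 110074345, 138 bp) was 724 bp away, and that of the nearest one after it (110075891 to 110075991, 101 bp) 941 bp away. Because the position is rounded, whether either peak touches the hairpin cannot be told. Within 1 kb of the position lay 3 peak centres, within 2 kb 5, within 5 kb 12 and within 10 kb 19. Of the 19, 10 lay before Mir140 and 9 after it.

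Before Mir140, the farthest of these 10 peaks began at 110065808 and was 187 bp wide. It was followed by peaks beginning at 110068246 (147 bp), 110068874 (74 bp), 110069774 (201 bp), 110070815 (68 bp) and 110071737 (97 bp). Their neighbouring centres were 592 to 2418 bp apart. The last 4 before Mir140 began at 110073037 (213 bp), 110073561 (142 bp), 110073985 (95 bp) and 110074208 (138 bp), and successive centres there were only 245 to 489 bp apart. The closest pair of the Mir140 group was therefore the one directly before the Mir140 position, with centres 245 bp apart.

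After Mir140, the peak beginning at 110075891 had its next neighbour 1267 bp away, centre to centre. Then came peaks beginning at 110077149 (118 bp), 110077950 (251 bp), 110078366 (168 bp), 110078833 (93 bp) and 110079267 (89 bp). Smaller peaks began at 110080861 (51 bp) and 110082210 (82 bp). The peak at 110082210 was the nearest to the rounded end of Wwp2, with its centre 750 bp inside it. The peak beginning at 110084404 (152 bp) was the first beyond the gene and the last within 10 kb of Mir140. The 5 further peaks of the group, between 110085234 and 110087967, were 149 to 386 bp wide.

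**Figure D2:**
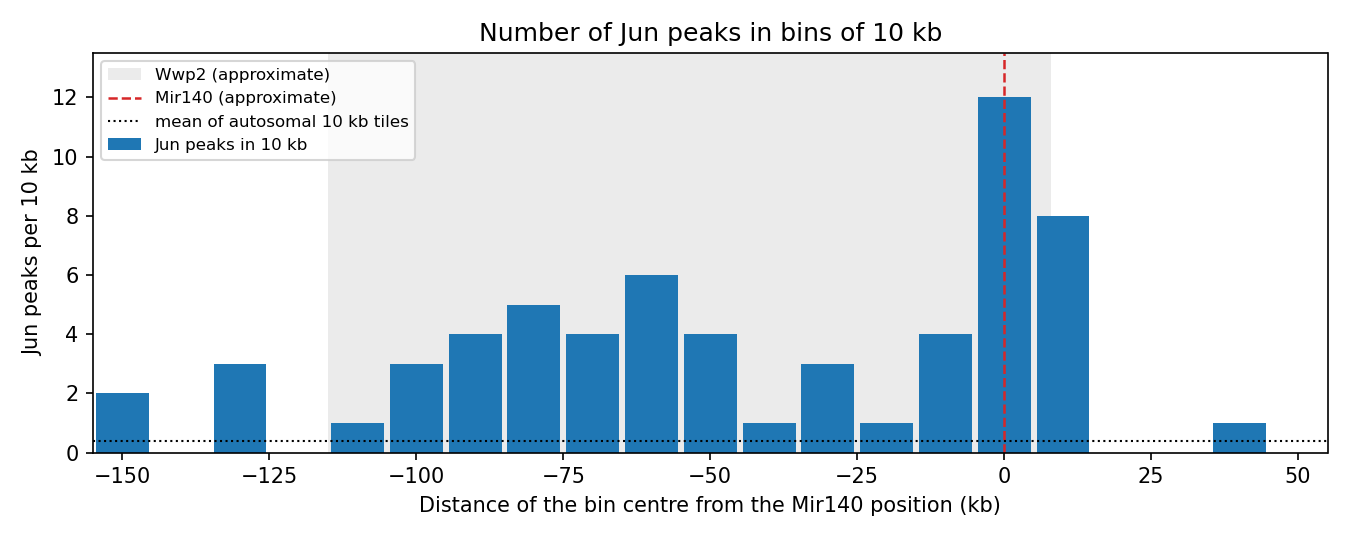
Bars give the number of Jun peaks in each of 21 bins of 10 kb (vertical axis) against the distance of the bin centre from the approximate Mir140 position (kb); the dotted line is the mean of autosomal tiles of 10 kb, 0.407. The bin at Mir140 holds 12 peaks and the next one 8, while no other bin holds more than 6.

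The fullest 10 kb of the window, 110070001 to 110080000, was the one that contained Mir140. Its 12 peaks began between 110070815 and 110079267 and covered 1573 bp. Among 240053 autosomal tiles of 10 kb, 50 (0.0208%) held 12 or more peaks, the fullest held 16, and on chromosome 8 this was the only such tile. The bin was picked as the fullest of the 21, so this share is a description and carries no test. The share also counts close neighbours separately. The merged regions of 4 peaks (110073037 to 110074345) and 5 peaks (110077149 to 110079355) lay within this bin. A share with close peaks merged was not computed for bins of this size. The following bin held 8 peaks and the preceding one 4. A bin near the middle of the intragenic Wwp2 group, from 110010001 to 110020000, came next with 6 peaks. Of the 21 bins, 5 were empty, 2 in the flank before Wwp2 and 3 in the flank after it.

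The whole 210 kb window was also dense. Tiles of 210 kb were laid from the first base of each autosome and counted only from its first to its last peak. Of these 11449 tiles, 24 (0.210%) held at least 62 peaks. The mean tile held 8.54 peaks and the median 5, so the window had 7.26 times the mean, and the fullest tile held 152. With tiles laid so that the window was one of them, the share was 0.245%, and on chromosome 8 it equalled another tile of 62 peaks (from 42090001), behind 1 of 80 (from 124620001). The share moved to 0.445% with close peaks merged, to 0.0700% in the first 50% of the list and to 0.909% in the last 50%. The window was set around a known gene and was proposed with results of this list in view, so its rank is given as a description and carries no test.

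**Figure D3:**
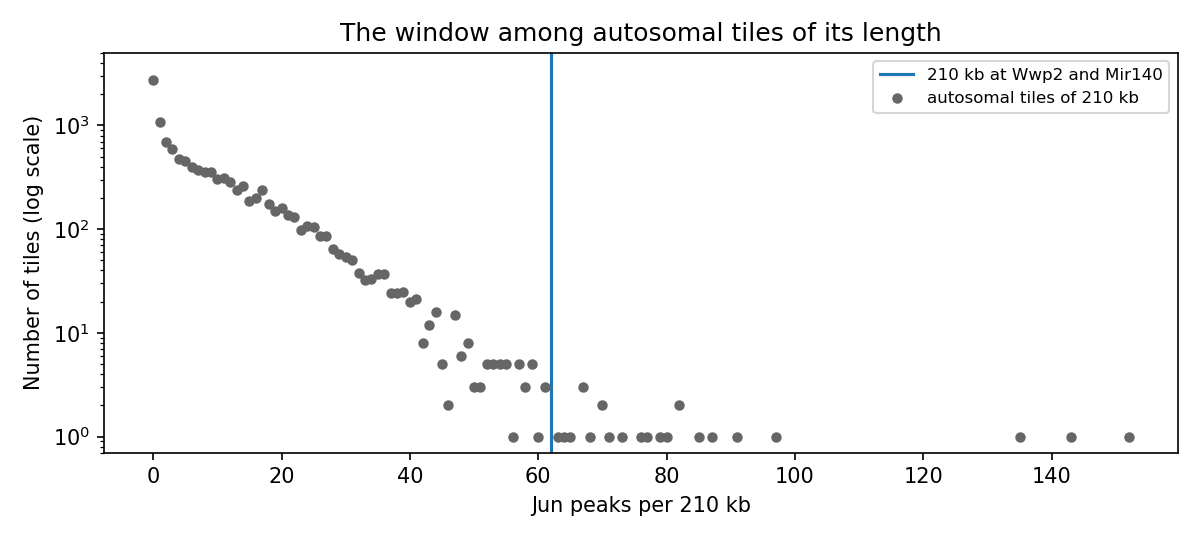
The blue line marks the 62 peaks of the window at Wwp2 and Mir140, and each grey point gives how many autosomal tiles of 210 kb (vertical axis, log scale) held a given number of Jun peaks (horizontal axis). The window lies in the sparse upper tail, with 24 of 11449 tiles at or above it.

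Set beside other groups of the list, the 2 groups differed in how packed they were. Of 37573 autosomal groups formed in the same way, 242 had 20 or more peaks, with a median of 4.74 peaks per 10 kb (central 50% from 3.85 to 5.99). The Mir140 group, at 10.8 per 10 kb, ranked 4 of the 242 by density and 1 of the 17 on chromosome 8, but 144 by number of peaks. The intragenic Wwp2 group, at 3.76, ranked 190 by density and 77 by number. The density rank of the Mir140 group was 2 of 191 with peaks of at least 50 bp and 12 of 77 with a chaining distance of 5 kb. At 20 kb it joined the intragenic Wwp2 group and others into a group of 59 peaks that ranked 67 of 694. With peaks within 1000 bp merged, its 8 regions no longer reached 20, and it had no rank.

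Widths at the locus differed little from those of the list as a whole and varied along it. The 62 peaks had a median width of 112 bp (central 50% from 92.3 to 146.5 bp), and the other 99100 peaks 114 bp (88 to 151 bp). In the Mir140 group the median was 144.5 bp, and 5 of 24 peaks (20.8%) reached 200 bp. In the intragenic Wwp2 group the median was 102 bp, and 1 of 31 (3.23%) reached 200 bp, against 14.0% of all other peaks. The 6 peaks of the Mir140 group beyond the end of Wwp2 were 149 to 386 bp wide, with a median of 170.5 bp.

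The 3 widest peaks were one of 428 bp at 109973128 to 109973555, near the start of the intragenic Wwp2 group, and a pair of 386 bp (110086745 to 110087130) and 366 bp (110085761 to 110086126) beyond the end of Wwp2. The narrowest measured 49 bp, at 109982425 to 109982473 in the intragenic Wwp2 group. It was the only one of the 62 under 50 bp (1.61%), against 6.30% of the other peaks. No peak overlapped its neighbour, and together the 62 covered 8166 bp, or 3.89% of the window.

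Place in the list also varied along the locus. The 62 peaks had their median at 31.1% of the list (95% interval from the ranked places 19.4% to 56.3%, counting error only). The other peaks had theirs at 50.0%. Neighbouring peaks are not independent, so the interval is no test of this difference. In the first 10% of the list were 12 of the 62 (19.4%), against 9.99% of the other peaks, and in the last 20% were 13 (21.0%). The Mir140 group had its median at 55.7% of the list, with 5 of 24 peaks (20.8%) in the first 20% and 8 (33.3%) in the last 20%. The intragenic Wwp2 group had its median at 19.4%, with 16 of 31 peaks (51.6%) in the first 20% and 3 (9.68%) in the last 20%. The median place was later in 238 of the 242 groups of 20 or more peaks than in the intragenic Wwp2 group. The same was so in 95 of the 242 for the Mir140 group.

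The 5 peaks within 2 kb of Mir140 all stood late, at 71.7%, 91.5%, 80.2%, 97.6% and 91.7% of the list in order of position. Yet 4 of the peaks between 3215 and 7251 bp from Mir140, on either side, were in the first 10%. They began at 110068874 (5.91% of the list), 110069774 (6.88%), 110071737 (7.25%) and 110082210 (7.85%). Late and early places thus lay within a few kb of each other in the Mir140 group. Whether place follows peak strength was not tested, because the list gives no score.

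The 3 earliest peaks of the locus lay elsewhere. The first, at row 1123, was the lowest peak of the window (109927039 to 109927160, 122 bp), 32.9 kb before Wwp2. The second, at row 1740, lay in the intragenic Wwp2 group (109981714 to 109981814, 101 bp), as did the third at row 2066 (109993765 to 109993856, 92 bp). Jun peaks of the first 10% of the list were thus found in the flank before the gene, through the gene and in the part around Mir140.

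**Figure D4:**
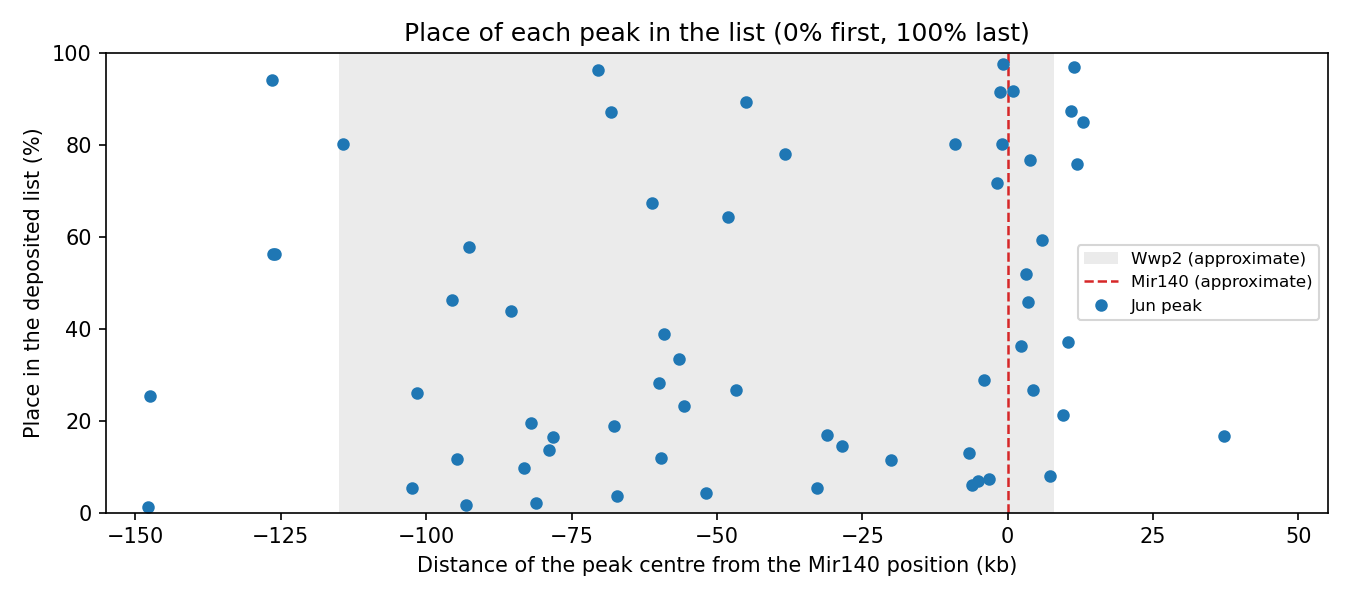
Each point is 1 of the 62 Jun peaks, with its distance from the approximate Mir140 position (kb, horizontal axis) and its place in the deposited list in percent (0% first, 100% last). The peaks between -103 and -20 kb lie mostly low, with a median of 19.4%, and the 5 points nearest the dashed Mir140 line lie above 71%.

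The flanks ended the pattern on both sides. Before Wwp2 the list held the pair at 109927039 to 109927574 and a set of 3 peaks from 109948450 to 109949031, whose centres were 194 and 266 bp apart. After the Mir140 group, 24337 bp passed from its last centre to that of the last peak of the window (110112105 to 110112324, 220 bp, at 16.6% of the list). Outside the window the next peaks were 22.0 kb below the first member (109904855 to 109905310, 456 bp) and 83.3 kb above the last (110195406 to 110195563, 158 bp). The crowding of Jun peaks at the end of Wwp2 was therefore followed by a long stretch with 1 peak.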

How the data were processed

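Jun peaks were analysed in 1 deposited list, taken to be that of the only Jun ChIP library among the 6 samples. Chromatin of 20000000 cells, fixed in 1% formaldehyde over 10 minutes and sheared to 100 to 600 bp, was precipitated with 9 μg of antibody and amplified by 18 PCR cycles, per the labels' protocols. The deposited values are other than a measured level: mm9 positions (chromosome, start, end), per the submitters' processing notes, without score, height or p-value. The list's name carries the mark FDR1, whose meaning no label states. How reads were aligned, peaks called or the input used is not given in the sources used here. Depth is unknown. Starts were changed to count from 1. Peaks were assigned by their centre and counted with Python 3.11.15, pandas 2.3.3, numpy 2.4.6 and scipy 1.17.1 (exact 95% intervals). The counting was tested on simulated data. Promoter and microRNA sequences are RefSeq's, build GRCm38.p6. No coordinate was converted between builds. The window, tests and rules were chosen with earlier results of these data known. Named peaks are the first and last member, those within 10 kb of Mir140, those nearest the Wwp2 bounds, the 3 widest, the narrowest, the 3 earliest in the list, the ends of the fullest bin and the neighbours outside the window. Groups, merged regions and other peaks were named after their values were seen. Alternatives changed membership, bounds, distances, tile layout, peak width and merging.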

Additional observations from a re-analysis of the deposited data

How the results depend on the processing

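Of 31 alternatives, 20 left their result within its counting interval or within 1.5 times the reported count, and 11 did not. Merging peaks within 1000 bp turned the 62 peaks into 33 regions, with a median spacing of 3793 bp against 1267 bp and a share of tiles at least as full as the window of 0.445% against 0.210%. That share was 0.327% on chromosome 8 alone, 0.0700% in the first 50% of the list (38 of the 62 peaks) and 0.909% in the last 50% (24 peaks). Chaining at 5 kb gave 13 groups and at 20 kb 3, against 6 at 10 kb, and 12 peaks lay within 5 kb of Mir140. The share of promoters was 5.20% for TGACTCA and 1.79% for TGACGTCA. Merging removes short distances and leaves fewer regions by construction, and a shorter or longer chaining distance splits or joins groups by construction. With merging or in a part of the list, the window and the tiles lose peaks together. Fewer peaks therefore do not fix the direction in which the share of tiles moves. A radius of 5 kb cannot hold more peaks than one of 10 kb. TGACTCA is contained in TGANTCA, so its share cannot be higher, and TGACGTCA is a different motif. The cause of the changes in the share of tiles, with merging, in each part of the list and on chromosome 8, was not tested. Alternatives on group density, added motifs and neighbouring rows were chosen after seeing the data. No replicate could be left out, since the list has none. No paired analysis was possible because the list is that of 1 library. Without read depth, a stretch without a peak is not shown to be unbound.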

Other observations

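Peaks that are close on the genome were sometimes close in the list, more so in its later part. The peak at the start of Wwp2 and 2 peaks of the Mir140 group, beginning at 110065808 and 110073985, stood at rows 79537, 79542 and 79544. Over the whole list, 0.666% of the rows in the first 10% had a peak on the same chromosome within 210 kb among the next 10 rows. In the seventh to ninth such parts of the list this was 11.2% to 11.7%, and in the last 7.82%. Most rows had no such neighbour, and no 2 of the 5 peaks within 2 kb of Mir140 stood within 10 rows of each other. What orders the list was not determined.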
